A study of Mus musculus with 16 samples.

Results

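The transcripts described here encode the cytosolic heat shock chaperones of mouse oocytes, their helper proteins and the heat shock transcription factors. They were chosen by gene name: names that begin with Hspa, Hspb, Hsph, Dnaja, Dnajb or Bag followed by a digit, plus Hsp90aa1, Hsp90ab1, Hsf1, Hsf2, Hsf4 and Hsf5, without Hspa5, Hspa9, Dnajb9 and Dnajb11. This gave 43 entries with 41 gene names among the 28618 entries of the expression table. RNA-seq had been made from germinal vesicle (GV) oocytes, which are held in meiotic prophase, and from eggs, which are ovulated oocytes labelled as metaphase II (MII). The study compared WT females with Psma7 cKO females, whose oocytes lose PSMA7, a subunit of the α-ring of the 20S proteasome, and asked what that loss does to protein homeostasis in the oocyte. The 4 groups were WT GV oocytes, cKO GV oocytes, WT eggs and cKO eggs, with 4 libraries in each and a pool of 5 cells in each library according to the labels. The methods of the study give another pool size. All females were 3 to 4 weeks old and had received 5 IU of pregnant mare serum gonadotropin. GV oocytes were taken 44 h after it, or human chorionic gonadotropin was given at that time and eggs were collected 14 to 16 h later and treated with 0.3% hyaluronidase. In cKO females both floxed copies of Psma7 are deleted by a Cre driven by the Zp3 promoter, so the deletion is limited to growing oocytes, and WT females served as controls. The labels call the libraries of a group biological replicates without naming the animals, so the p-values measure the spread between these pools of cells.

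Heat shock chaperones bind unfolded or partly folded proteins and help them fold, or pass them on for degradation. HSP70 proteins do this in cycles of ATP hydrolysis, J-domain proteins (DNAJ) bring them their clients and start the cycle, HSP110 proteins and BAG proteins exchange the nucleotide, HSP90 proteins act late on kinases and receptors, and small heat shock proteins hold aggregating proteins without using ATP. When unfolded proteins build up, for example after inhibition of the proteasome, HSF1 is released from chaperones, binds heat shock elements in DNA and raises transcription of many of these genes. Full-grown GV oocytes and eggs are transcriptionally silent and live on stored maternal mRNA, and HSF1 itself is known as a maternal factor needed for oocyte meiosis and early embryos.

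Levels are given in FPKM, fragment counts scaled by transcript length and by library depth, which is a share of the polyadenylated RNA read in a library and not an amount per oocyte. A transcript at a lower level in every cell of a pool and one missing from some of the cells cannot be told apart. Estimated depth was 10.6 to 15.7 M fragments per library. Psma7 served as the check of the labels. It stood at 154, 142, 201 and 164 FPKM in the WT GV libraries and at 14.5, 14.7, 11.1 and 18 FPKM in the cKO GV libraries. The egg libraries held 118, 116, 97.7 and 172 FPKM in WT and 13.6, 50.3, 35 and 59.9 FPKM in cKO. All 8 cKO libraries were therefore below all 8 WT libraries, with more Psma7 in 3 of the 4 cKO egg libraries than in any cKO GV library. The log2 fold change of Psma7 in cKO was -3.51 in GV oocytes (adjusted p = 8.98e-07) and -1.83 in eggs (adjusted p = 0.0359), and the egg call was lost without any 1 WT egg library or without cKO egg replicate 3 (adjusted p up to 0.101).

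Of the 43 entries, 28 averaged 1 FPKM or more across all libraries, 17 averaged 10 FPKM or more and 6 averaged 100 FPKM or more. Hsf2 reached a mean of 1 FPKM in cKO GV oocytes alone. The other 14 entries had every group mean below 1 FPKM, 13 of them below 0.5 FPKM in all 16 libraries. Hsp90aa1 alone, at a mean of 2500 FPKM, made up 67.0% of the members' summed FPKM and ranked 10 among all entries of the table. Dnajb4, Hspa8, Dnaja1, Dnajb6 and Hsp90ab1 followed, with means between 125 and 262 FPKM. The summed FPKM of all members was 3499 ± 234 in WT GV oocytes and 3594 ± 128 in cKO GV oocytes (SD, n = 4), and 3862 ± 122 in WT eggs and 3963 ± 304 in cKO eggs. Without Hsp90aa1 the sum was 1508 ± 51.8 and 1532 ± 95.8 in GV oocytes and 877 ± 20.4 and 999 ± 53.9 in eggs, in the same order of genotypes. The sum was thus carried by Hsp90aa1, and the other members together were at lower levels in eggs than in GV oocytes. Some names that fit the rule do not encode cytosolic chaperones: Hspa13, Dnajb12 and Dnajb14 belong to the endoplasmic reticulum, Dnaja3 to mitochondria, Hspb11 to cilia, and Dnaja1-ps is a pseudogene. Hspa1a, Hspa1b, Hspa1l, Hspb2, Hspb7, Hspb9 and Dnajb8 would fit the rule but had no entry under these names, so they are not analysed here.

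Hsf1, the main activator of heat shock genes, was the most abundant Hsf transcript. Its gene lies at chr15:76477422-76501913 on the plus strand (GRCm38). The level was 22.7, 20.6, 16.5 and 24.4 FPKM in WT GV oocytes and 17.1, 22.6, 26.5 and 22.9 FPKM in cKO GV oocytes. In eggs it was 13.6, 14.5, 15.9 and 13.4 FPKM in WT and 22.3, 15.5, 12.5 and 14.2 FPKM in cKO. The genotypes overlapped at both stages, with cKO egg replicate 1 above all other egg libraries and inside the range of the GV libraries. Hsf5, a factor best known from male germ cells, had 2 entries. Hsf5 entry 1 was at 1.62, 3.89, 2.89 and 4.21 FPKM in WT GV oocytes, 1.7, 3.03, 2.25 and 0.943 FPKM in cKO GV oocytes, 5.19, 5.47, 3.83 and 3.56 FPKM in WT eggs and 5.7, 3.08, 3.09 and 3.85 FPKM in cKO eggs. Hsf5 entry 2 was at 0.408, 0.515, 0.489 and 0.428 FPKM in WT GV oocytes, 0.677, 0.312, 0.507 and 0.526 FPKM in cKO GV oocytes, 0.35, 0.461, 0.655 and 0.365 FPKM in WT eggs and 0.262, 0.527, 0.5 and 0.457 FPKM in cKO eggs. Entry 1 spread widely within each group and the genotypes overlapped, while entry 2 was low in every library.

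Hsf2, a factor that works together with HSF1 and has roles in gametes, was at 1.13, 0.616, 0.841 and 0.654 FPKM in WT GV oocytes and 1.47, 0.589, 1.08 and 1.02 FPKM in cKO GV oocytes. In eggs Hsf2 was at 0.366, 0.348, 0.326 and 0.279 FPKM in WT and 0.318, 0.299, 1.07 and 0.516 FPKM in cKO. All 4 WT egg libraries were below all 4 WT GV libraries, whereas cKO egg replicate 3 lay within the GV range, and with a mean below 1 FPKM the transcript was not tested. Hsf4, the factor of the eye lens, was above 0 only in WT GV replicate 3, at 0.0371 FPKM, and in cKO GV replicate 1, at 0.04 FPKM, and was listed at 0 in the other libraries.

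HSP90 was represented by an abundant and a moderate transcript. Hsp90aa1, the stress-inducible cytosolic HSP90, stood at 2049, 1656, 2279 and 1979 FPKM in WT GV oocytes and 2179, 2055, 1814 and 2199 FPKM in cKO GV oocytes. Its egg values were 2832, 3048, 3002 and 3056 FPKM in WT and 2532, 3089, 3068 and 3167 FPKM in cKO. All 8 egg libraries were above all 8 GV libraries, the genotypes overlapped at both stages, and cKO egg replicate 1 was the lowest egg library. Hsp90ab1, the constitutive form, was at 117, 117, 126 and 136 FPKM in WT GV oocytes, 102, 147, 141 and 142 FPKM in cKO GV oocytes, 118, 128, 124 and 104 FPKM in WT eggs and 133, 138, 119.7 and 113 FPKM in cKO eggs. Those 4 groups overlapped, and cKO GV replicate 1 was the lowest of all 16 libraries.

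Among the HSP70 members, Hspa8, the constitutive HSC70, led the family. Its level was 235, 260.2, 250.4 and 253 FPKM in WT GV oocytes and 207, 274, 290.2 and 257 FPKM in cKO GV oocytes, against 68.4, 86.5, 69 and 74.3 FPKM in WT eggs and 76.2, 76.2, 88.2 and 86.2 FPKM in cKO eggs. Every egg library was below every GV library and the genotypes overlapped at both stages. The other HSP70 members were low, led by Hspa14 with a mean of 15.3 FPKM. Hspa4, an HSP110 nucleotide exchange factor, was at 99, 88.2, 60.5 and 82.3 FPKM in WT GV oocytes, 75.9, 81.6, 95.7 and 74.6 FPKM in cKO GV oocytes, 20.2, 24.5, 21.9 and 20.2 FPKM in WT eggs and 21.6, 21.5, 24.1 and 18.8 FPKM in cKO eggs. Hsph1, the HSP110 protein induced by heat, was at 72.1, 42.5, 49.5 and 61.3 FPKM in WT GV oocytes, 55.4, 63.9, 75.9 and 51.4 FPKM in cKO GV oocytes, 19.3, 22.6, 20.3 and 19.7 FPKM in WT eggs and 19.4, 17.9, 28.8 and 20.6 FPKM in cKO eggs. Both HSP110 transcripts were lower in all 8 egg libraries than in any GV library, with overlapping genotypes. Hspa4l, another HSP110 form, was at 6.58, 7.33, 5.31 and 7.13 FPKM in WT GV oocytes, 6.7, 7.67, 9.53 and 6.5 FPKM in cKO GV oocytes, 4.96, 4.69, 5.6 and 5.77 FPKM in WT eggs and 5.3, 5.01, 4.41 and 4.04 FPKM in cKO eggs. Here WT GV replicate 3 lay among the WT eggs, and the cKO stages did not overlap.

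The class A J-domain proteins bring unfolded clients to HSP70. Dnaja1 (chr4:40722150-40737149, plus strand), the most abundant of them, was at 241, 218, 226 and 223 FPKM in WT GV oocytes and 219, 243, 197 and 217 FPKM in cKO GV oocytes. In eggs it was at 76.3, 82.7, 81.9 and 80.6 FPKM in WT and 136, 102, 139 and 115 FPKM in cKO. The 4 WT egg libraries lay close together, all 4 cKO egg libraries were above them, and both groups of eggs were below every GV library. The exons of Dnaja1 overlap those of Smu1 on the opposite strand, which had a mean of 218 FPKM, and the libraries do not mark strand, so fragments from the overlap cannot be assigned with certainty. Dnaja2 was at 84, 81.2, 70.9 and 93.7 FPKM in WT GV oocytes, 76.9, 92.2, 82.1 and 84.9 FPKM in cKO GV oocytes, 44.5, 40.6, 44.9 and 55.4 FPKM in WT eggs and 58, 46.8, 53.9 and 48 FPKM in cKO eggs. Dnaja3, the mitochondrial member, was at 69.9, 72.7, 47.9 and 68.4 FPKM in WT GV oocytes, 54.3, 68.5, 78.3 and 61.1 FPKM in cKO GV oocytes, 3.15, 3.31, 2.93 and 5.76 FPKM in WT eggs and 4.94, 3.73, 8.84 and 6.84 FPKM in cKO eggs. For Dnaja2 and Dnaja3 all eggs were below all GV oocytes and the genotypes overlapped, and WT egg replicate 4 was the highest WT egg library for both.

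Class B J-domain proteins act with HSP70 in folding and in holding or dissolving aggregates. Dnajb4 was at 170.3, 213, 223 and 205 FPKM in WT GV oocytes, 209.8, 203, 190.0 and 199 FPKM in cKO GV oocytes, 312, 269, 301 and 350.1 FPKM in WT eggs and 295, 307, 335 and 415 FPKM in cKO eggs. All eggs were above all GV oocytes, and the genotypes overlapped. Dnajb1, the heat-inducible partner of HSP70 in disaggregation, was at 98.1, 95.6, 79.8 and 96.6 FPKM in WT GV oocytes, 91.4, 101, 119 and 86.3 FPKM in cKO GV oocytes, 16.6, 16.2, 17.1 and 20 FPKM in WT eggs and 19, 17.2, 28.7 and 22.2 FPKM in cKO eggs. It ran the opposite way to Dnajb4, with every egg library below every GV library and overlapping genotypes. Dnajb6, which keeps aggregation-prone proteins soluble, was at 193, 181, 179 and 196 FPKM in WT GV oocytes, 181, 182, 160.4 and 173 FPKM in cKO GV oocytes, 80.4, 97.6, 94 and 80.3 FPKM in WT eggs and 115, 103, 115 and 99.9 FPKM in cKO eggs. The genotypes overlapped in GV oocytes, and in eggs the 4 cKO libraries were just above the 4 WT libraries.

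Transcripts of small heat shock proteins and BAG proteins were at lower levels than the most abundant members. Bag1, named with its values already known, averaged 16.7 FPKM over the 16 libraries and Bag4 averaged 15.8 FPKM. Hspb1 (HSP27; chr5:135887919-135889563, plus strand) was at 3.61, 6.48, 6.35 and 4.04 FPKM in WT GV oocytes and 11.9, 17.1, 9.27 and 9.79 FPKM in cKO GV oocytes. In eggs it was at 10.7, 17.4, 14.2 and 7.98 FPKM in WT and 17, 9.72, 7.98 and 15.7 FPKM in cKO. The 4 WT GV libraries were below all 12 other libraries, which overlapped among themselves. These values rest on few fragments, with an estimated 42.6 to 238 per library (median 119), against 73647 to 146884 for Hsp90aa1. Hspb8 and Bag3, whose proteins form a complex that sends misfolded proteins to autophagy, were at or near 0 FPKM. Hspb8 did not exceed 0.12 FPKM in any library, and Bag3 was listed at 0 in 15 of the 16 libraries, with 0.0286 FPKM in cKO egg replicate 3. Hspb8 thus rests on an estimated 3.00 fragments at most in a library and Bag3 on 0.993, so their presence or absence was not detectable at this depth.

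**Figure D1:**
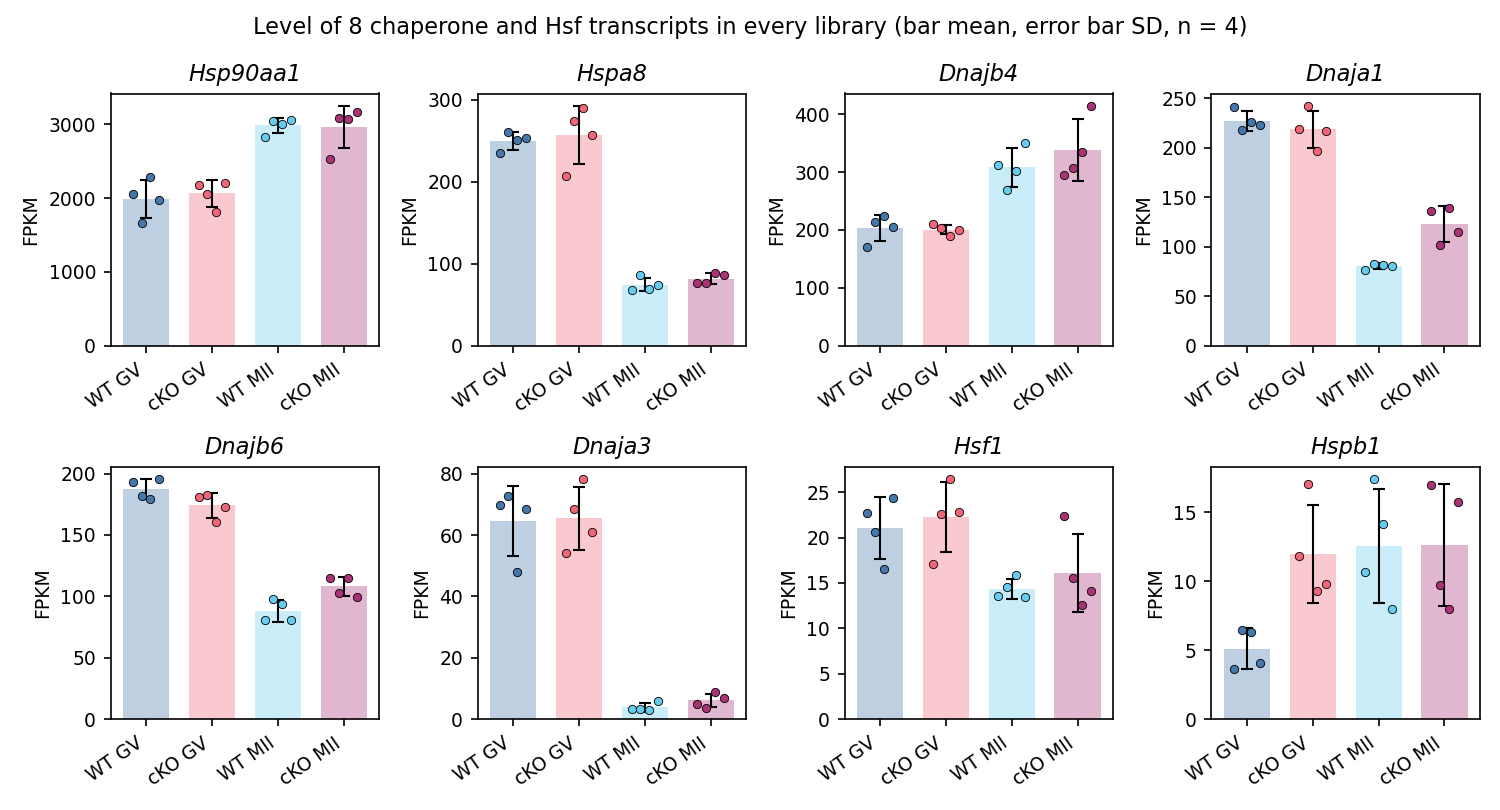
FPKM of Hsp90aa1, Hspa8, Dnajb4, Dnaja1, Dnajb6, Dnaja3, Hsf1 and Hspb1 in each of the 16 libraries (points), with the mean of each group (bar) and its SD (error bar, n = 4). Hsp90aa1 and Dnajb4 were higher in all eggs than in all GV oocytes, and Hspa8, Dnaja1, Dnajb6 and Dnaja3 were lower. For Dnaja1 and Dnajb6 all cKO eggs stood above all WT eggs, and limma called Dnaja1 alone when the egg libraries were fitted on their own.

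Between eggs and GV oocytes most tested members differed, as did most transcripts of the table. In WT, 4 of 28 tested members were higher in eggs (26.1% of all 10475 transcripts tested were) and 19 were lower (52.4% of all transcripts). In cKO, 4 of 28 members were higher (23% of all 10748 transcripts) and 17 were lower (51% of all transcripts). The median log2 fold change of the members was -0.57 in WT and -0.69 in cKO, against -0.44 and -0.42 over all transcripts. In both genotypes 3 members rose and 17 fell, 3 were called in WT alone, 1 in cKO alone and 4 in neither. The matching counts over all transcripts are not given here, so these counts only describe the members. The members that rose in both were Hsp90aa1, Dnajb4 and Hspa14, an HSP70 protein of the ribosome. Hsp90aa1 had a log2 fold change of 0.59 ± 0.10 (SE) in WT and 0.52 ± 0.10 in cKO. Dnajb4 rose by 0.60 ± 0.11 in WT and 0.74 ± 0.11 in cKO. Hspa14 rose by 0.70 ± 0.11 in WT and 0.57 ± 0.10 in cKO. The stage comparisons of both genotypes use different libraries, and a difference between them is tested by the interaction given with the genotype results.

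The mitochondrial Dnaja3 fell steeply, with a log2 fold change of -4.13 ± 0.21 in WT and -3.49 ± 0.25 in cKO (adjusted p = 2.45e-08 and 3.83e-06). Bag4, which silences death receptors, was at -2.50 in WT and -2.24 in cKO. Dnajb2, a J-domain protein that feeds clients to the proteasome, was at -2.49 and -2.73, values held up by the floor of 1 FPKM, since its mean went from 5.69 to 0.291 FPKM in WT and from 7.01 to 0.748 FPKM in cKO. With a floor of 0.1 FPKM, Dnajb2 was at -4.30 in WT and -3.22 in cKO, which turns the order of the genotypes and puts it below Dnaja3 in WT. Dnajb1 was at -2.40 and -2.21, Hspa4 at -1.91 and -1.93, and Hspa8 at -1.75 and -1.65 (largest adjusted p of these 5 members 8.38e-06). By family, beside 52.4% of all transcripts in WT and 51% in cKO, all 4 DNAJA and all 3 HSP110 transcripts were called lower in eggs in both genotypes, and none of these changed sign when libraries were put on a common scale by median ratios, although Hspa4l was then not called in WT. Of 5 tested DNAJB transcripts, 4 were lower and Dnajb4 was higher in both genotypes, without a change of sign on that scale, on which Dnajb12 was not called in cKO (adjusted p = 0.0517). Hsf1 had a log2 fold change of -0.54 in WT (adjusted p = 0.00241) and -0.48 in cKO (adjusted p = 0.0483). The cKO call of Hsf1 was kept only without cKO GV replicate 1 or cKO egg replicate 1, and was lost without each of the other 6 libraries (adjusted p up to 0.127, and up to 0.295 under other settings). Hspa4l in WT was as close to the threshold, at -0.32 (adjusted p = 0.0498), and lost the call without each library except WT GV replicate 3 and WT egg replicate 4 (adjusted p up to 0.130, and up to 0.508 under other settings).

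Members called in a single genotype were Hspb1, Hspb6 and Hspb11 in WT and Hsf5 entry 1 in cKO, of which Hspb6 and Hspb11 are named for this count only, with their values already known. None of these members was called in the interaction. Hspb1 rose in WT by 1.28 ± 0.26 (adjusted p = 0.00103), with a log2 fold change of 0.04 ± 0.28 in cKO. Hsf5 entry 1 rose in cKO by 1.04 (adjusted p = 0.019) and was at 0.58 in WT, and the cKO call was lost without cKO egg replicate 1 (adjusted p = 0.0515) and with no filter on low levels (adjusted p = 0.0596). Hspb6 was at -0.46 in WT and -0.10 in cKO, and its WT call was lost on the median-ratio scale (-0.24, adjusted p = 0.0799; from 0.0011 over the other settings). Hspb11 was at -0.35 in WT and 0.35 in cKO. The WT call of Hspb11 was kept only without WT egg replicate 4 (adjusted p up to 0.135 without each other library, and up to 0.360 under other settings). The exons of Hspb6 overlap those of Lin37 on the opposite strand, which had a mean of 30.6 FPKM. Because FPKM are shares, these directions depend on the scale. The median-ratio scale moved the median of all transcripts up by 0.23 in WT and 0.25 in cKO, gave 6 members higher and 16 lower in WT and 5 and 15 in cKO, and turned the sign of Bag5 and Hsp90ab1 in both genotypes and of Hspa13 and Hspb6 in cKO.

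**Figure D2:**
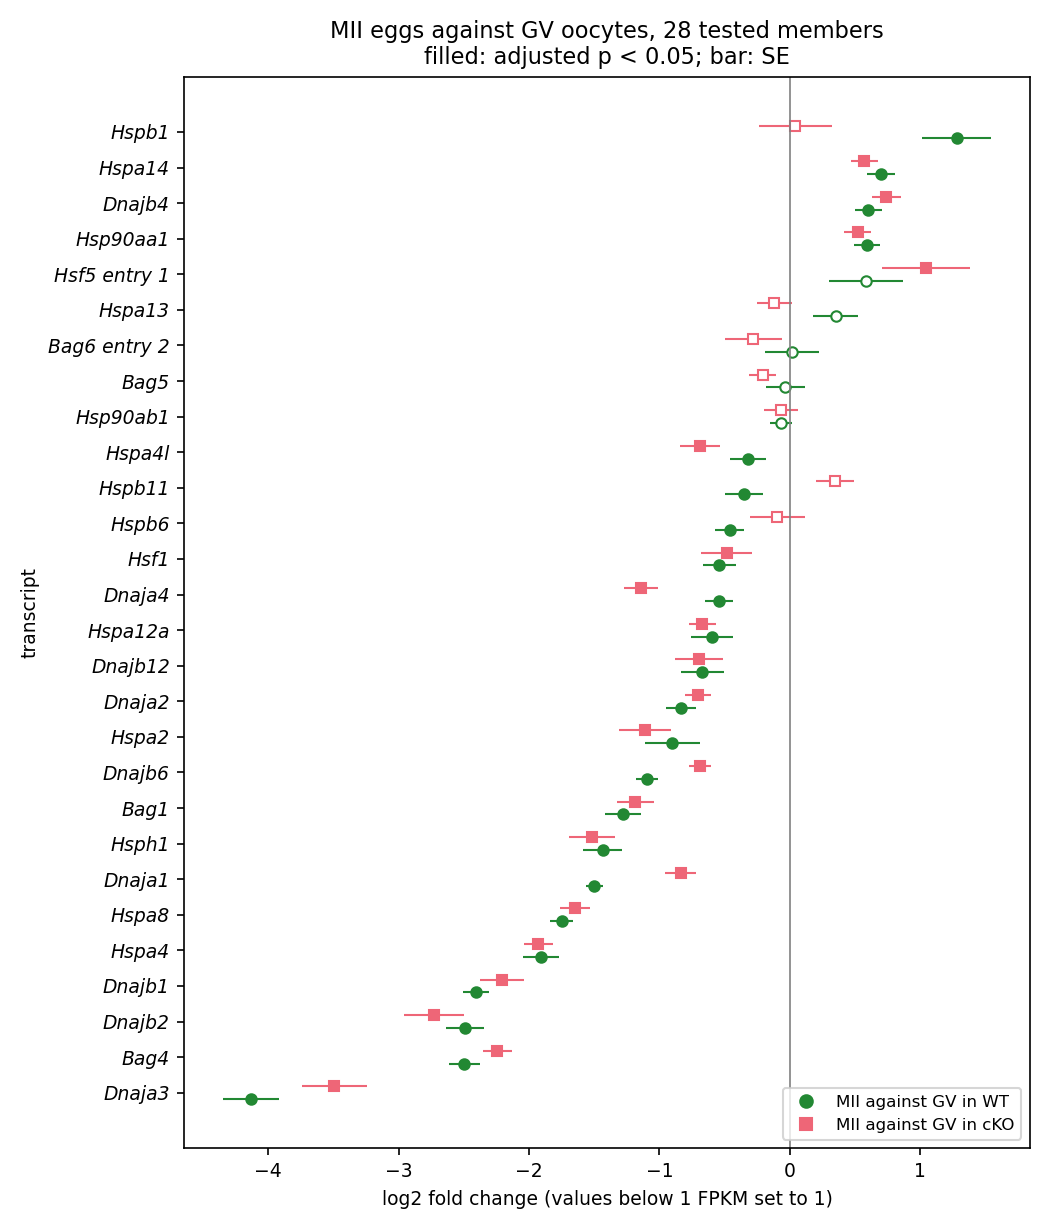
Log2 fold change of eggs against GV oocytes for the 28 tested members in WT (circles) and cKO (squares), with the SE as bars and filled symbols for an adjusted p below 0.05. Most members lay below 0 in both genotypes, Dnaja3 at -4.13 and -3.49 (with a floor of 0.1 FPKM in place of 1 FPKM, Dnajb2 lay lower in WT, at -4.30), and Hspa14, Dnajb4 and Hsp90aa1 were above 0 in both.

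The comparison of cKO with WT addresses whether loss of the proteasome subunit came with other levels of these transcripts. In GV oocytes limma called 0 of 28 tested members higher (0.0994% of all 11062 transcripts tested) and 0 lower (0.0181%). At an unadjusted p under 0.05, 3 members were higher (7.62% of all transcripts) and 0 were lower (3.06%). The members with no overlap between genotypes were the same 3, all higher in cKO (4.25% of all transcripts), and 0 were lower (2.42%). The median log2 fold change was 0.07 for the members and 0.04 for all transcripts. Hspb1 had the largest difference, from 5.12 ± 1.51 FPKM in WT to 12.0 ± 3.57 FPKM in cKO (SD, n = 4). Its log2 fold change of 1.23 ± 0.24 (SE) missed the threshold (adjusted p = 0.0902), although all 4 cKO libraries were above all 4 WT libraries. Dnaja4 and Hspa13, named with their values already known, were the other members of that count. Dnaja4 was at 14, 11.5, 11.8 and 14.8 FPKM in WT and 15.1, 18.4, 21.2 and 15.1 FPKM in cKO (log2 fold change 0.42, adjusted p = 0.302). Hspa13 was at 3.1, 2.21, 2.78 and 2.54 FPKM in WT and 4.25, 3.16, 3.18 and 3.31 FPKM in cKO (log2 fold change 0.39, adjusted p = 0.419). For Dnaja4 and for Hspa13 the highest WT library lay just below the lowest cKO library, and the exons of Dnaja4 overlap those of Wdr61 on the opposite strand, with a mean of 17.1 FPKM.

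Further named members are given with their SE, and limma called none of them in GV oocytes. Hsf5 entry 1 had the lowest log2 fold change of all tested members, -0.68 ± 0.37 (adjusted p = 0.546). Hsf1 was at 0.08 ± 0.16. Hsp90aa1 was at 0.06 ± 0.11, Hsp90ab1 at 0.09 ± 0.12, Hspa8 at 0.03 ± 0.11 and Hsph1 at 0.14 ± 0.17. Dnaja1 was at -0.06 ± 0.09, Dnajb1 at 0.10 ± 0.12, Dnajb4 at -0.01 ± 0.10 and Dnajb6 at -0.11 ± 0.08. A list of known HSF1 targets held 13 member names, of which 11 had an entry, while Hspa1a and Hspa1b had none. Of its 9 tested members, 0 were called in limma and 1, Hspb1, was higher at an unadjusted p under 0.05 (7.62% of all transcripts were). The median of these tested targets was 0.09.

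In eggs 1 member, Dnaja1, was called higher in cKO among 26 tested (6.53% of all 9492 transcripts were), and limma called 0 lower (1.49%). At an unadjusted p under 0.05, 4 members were higher (20.6% of all transcripts) and 0 were lower (8.8%). They were Dnaja1, Dnajb6, Bag4 and Hspb11, of which Bag4 and Hspb11 are named with their values already known. Dnaja1 rose from 80.4 ± 2.84 FPKM in WT eggs to 123 ± 17.9 FPKM in cKO eggs (SD, n = 4), with a log2 fold change of 0.60 ± 0.10 (SE, adjusted p = 0.0215), higher in 4 of 4 cKO libraries. With the replicate number as a block the call was lost (adjusted p = 0.0515). The call was close to the threshold when a library was left out: it was lost without WT egg replicate 1, 2, 3 or 4 (adjusted p = 0.0764, 0.0519, 0.0576 and 0.057) and kept without each cKO egg library (adjusted p between 0.00654 and 0.0458), with log2 fold changes between 0.54 and 0.69. The count over all transcripts moved as well, from 620 higher to 12, 109, 3 and 31 without WT egg replicate 1, 2, 3 and 4, and to 166, 1024, 287 and 360 without cKO egg replicate 1, 2, 3 and 4. Smu1 on the opposite strand had a log2 fold change of 0.02. Dnajb6 went from 88.1 ± 9.03 to 108 ± 7.8 FPKM, a log2 fold change of 0.30 ± 0.09 (adjusted p = 0.065). Bag4 had a log2 fold change of 0.31 (adjusted p = 0.151) and Hspb11 of 0.42 (adjusted p = 0.0954). No overlap between genotypes was seen for 3 members higher in cKO, namely Dnaja1, Dnajb6 and Hspb11 (13.6% of all transcripts), and for 1 lower, Dnaja4 (7.06%). With 1 of 26, the share of members called is near that of all transcripts and is no result about the members, and the medians were 0.08 for members and 0.07 for all transcripts.

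The remaining named members showed no called difference in eggs. Hsp90aa1 had a log2 fold change of -0.01 ± 0.09, Hsp90ab1 of 0.09 ± 0.09 and Hspa8 of 0.14 ± 0.09. Hsf1 was at 0.14 ± 0.17 and Hspb1 at -0.00 ± 0.30, with means of 12.6 FPKM in both genotypes for Hspb1. Dnaja3 was at 0.67 ± 0.30 (adjusted p = 0.176), with a wide spread from 3.73 to 8.84 FPKM among the cKO eggs. Dnajb1 was at 0.29 ± 0.15, Dnajb4 at 0.13 ± 0.12, Hspa4 at -0.02 ± 0.10 and Hsph1 at 0.06 ± 0.14. Transcripts that fall steeply during maturation were also followed. Over 396 transcripts outside the members that fell at least 10-fold in WT, the WT egg libraries held 5.93%, 6.80%, 6.22% and 6.05% of the GV level, and the cKO egg libraries 12.7%, 8.81%, 34.5% and 19.1%. All 4 cKO libraries were above all 4 WT libraries, but the WT libraries had chosen these transcripts. Some ovulated cKO oocytes had not completed meiosis by the study's account, and the part of either in the egg results was not tested.

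**Figure D3:**
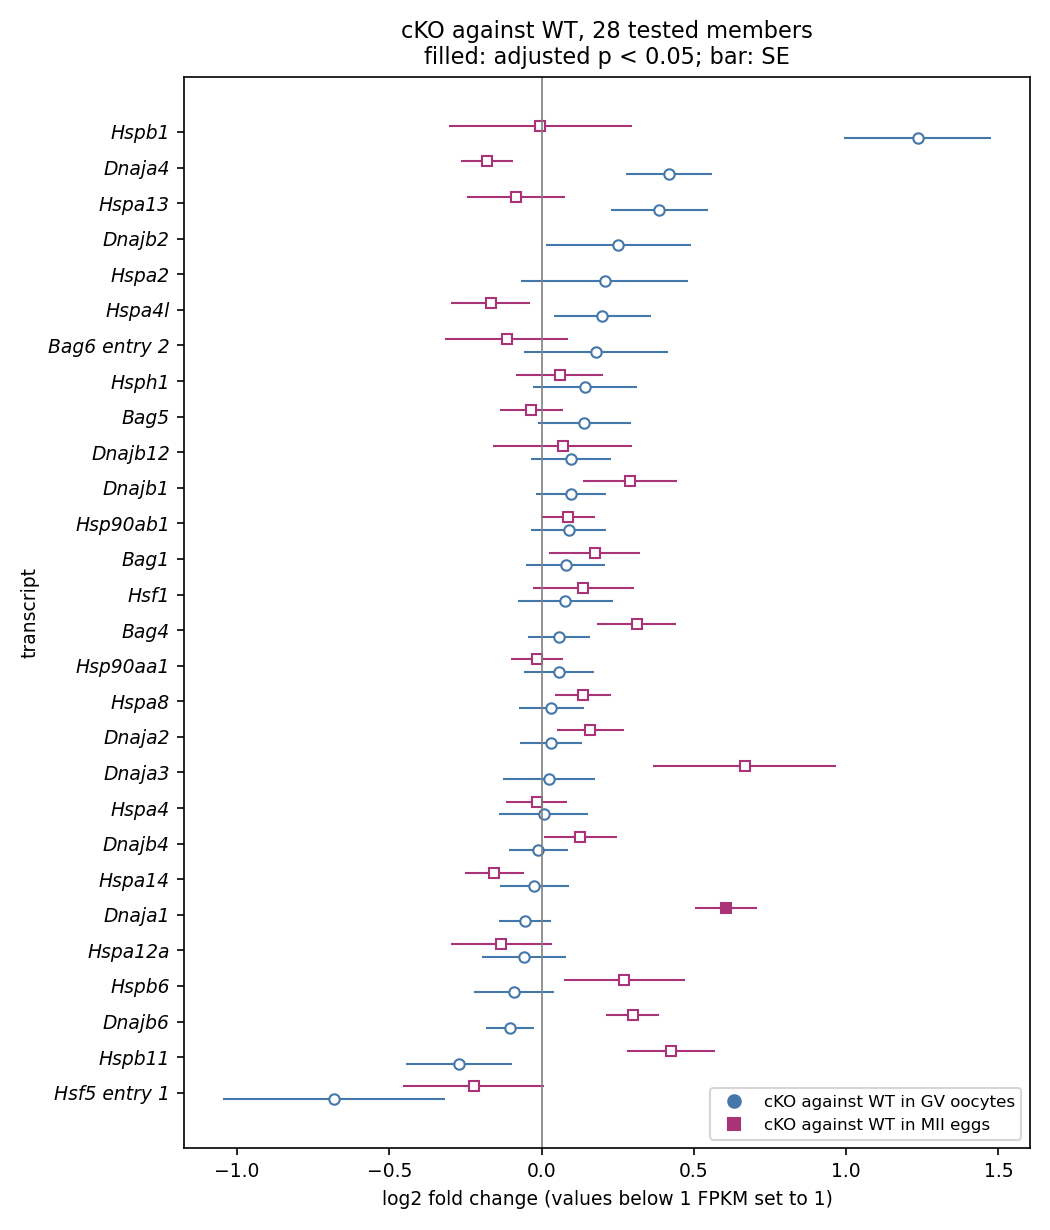
Log2 fold change of cKO against WT for the tested members in GV oocytes (circles, 28 members) and eggs (squares, 26 members), with the SE as bars and filled symbols for an adjusted p below 0.05. Dnaja1 in eggs, at 0.60, is the filled symbol, and Hspb1 in GV oocytes lies farthest from 0 at 1.23.

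Whether the genotype difference changed with stage was tested by the interaction in all 16 libraries. Dnaja1 was called again, with an interaction of 0.66 ± 0.13 on the log2 scale (SE, adjusted p = 0.0308). Between GV oocytes and eggs, Dnaja1 fell less in cKO (-0.84 ± 0.12) than in WT, where its mean went from 227 to 80.4 FPKM. It was 1 of 28 members called higher (1.07% of all 10615 transcripts), and limma called 0 lower (0.188%). At an unadjusted p under 0.05, 3 members were higher (12.7%) and 3 lower (5.03%). The call of Dnaja1 was lost without WT GV replicate 1 or 4, cKO GV replicate 3, or WT egg replicate 1, 3 or 4 (adjusted p up to 0.0706). It was also lost with no filter on low levels (adjusted p = 0.0944) and with the replicate number as a block (adjusted p = 0.0582). Over all the other settings the adjusted p ran from 0.0211 to 0.0944. Hspb1 had an interaction of -1.24 ± 0.42 (adjusted p = 0.135) and Dnajb6 of 0.40 ± 0.11 (adjusted p = 0.0863). Hspb11 had an interaction of 0.70 (adjusted p = 0.0922), Hspb6 of 0.36 (adjusted p = 0.465) and Hsf5 entry 1 of 0.46 (adjusted p = 0.681). For Hspb1 and these members, called between stages in a single genotype, the difference between the genotypes did not pass the threshold. The members' median was -0.01, against 0.03 over all transcripts.

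Genes that work with these chaperones gave the following counts. In GV oocytes limma called 0 members of each list in either direction: 10 tested HSF1 targets outside the family (0 at an unadjusted p under 0.05), 21 co-chaperones (0), 24 class C J-domain transcripts (2, both higher) and 8 genes that bind or regulate HSF proteins (0), where 7.62% of all transcripts were higher and 3.06% lower at that level. In eggs 1 of the 9 tested HSF1 targets among the members was called, Dnaja1, and the median of that list was 0.09. Outside the family 3 of 9 HSF1 targets were called higher in cKO (6.53% of all transcripts were), of which Ubb and Zfand2a are described. Ubb, a polyubiquitin gene, was at 518, 549, 515 and 717 FPKM in WT eggs and 1161, 1019, 1448 and 1336 FPKM in cKO eggs (log2 fold change 1.11 ± 0.14, adjusted p = 0.0133). Zfand2a, an arsenite-induced protein that binds the proteasome, was at 17.9, 20.5, 21.9 and 18.4 FPKM in WT eggs and 36.8, 28.2, 26.4 and 23.6 FPKM in cKO eggs (log2 fold change 0.53 ± 0.14, adjusted p = 0.0476). All cKO eggs were above all WT eggs for both genes, while in WT Ubb had fallen from GV oocytes to eggs, with a log2 fold change of -2.84. Ubb was also called in the interaction (1.16 ± 0.18, adjusted p = 0.0112) and kept that call without each of the 16 libraries.

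Co-chaperones of HSP90 and HSP70 were called higher in cKO eggs for 3 of 17 tested transcripts, where 6.53% of all transcripts were. Cdc37, which delivers kinases to HSP90, had a log2 fold change of 0.82 (adjusted p = 0.0407) and Ptges3 (p23) of 0.34 (adjusted p = 0.0394). Among 23 class C J-domain transcripts, Dnajc15 (1.14, adjusted p = 0.0418) and Dnajc17 (0.66, adjusted p = 0.0426) were higher. Hspbap1, which binds HSPB1, was higher among 6 tested genes around HSF (0.58, adjusted p = 0.034). No gene of these 4 lists was called lower in eggs in limma (1.49% of all transcripts were). At an unadjusted p under 0.05, 1 class C transcript and 1 gene around HSF were lower, beside 8.8% of all transcripts. Higher at that level were 4 of the other HSF1 targets, 6 co-chaperones, 7 class C transcripts and 1 gene around HSF, beside 20.6% of all transcripts. The medians in eggs were 0.21 for other HSF1 targets, 0.21 for co-chaperones, 0.07 for class C transcripts and -0.04 for the genes around HSF. Of the genes named here from these lists, none kept the call when WT egg replicate 1 or WT egg replicate 3 was left out. Ubb lost the call with these libraries only (adjusted p up to 0.0628), and the others lost it without 6 or 7 of the 8 egg libraries (adjusted p up to 0.132). Zfand2a, Ptges3, Dnajc15 and Dnajc17 also lost it with moderation without a trend, Zfand2a with 1 FPKM added, Ptges3 with no filter and Dnajc17 on the median-ratio scale.

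Between GV oocytes and eggs of WT the same lists moved in both directions. The counts are to be read against all transcripts, of which 26.1% were higher and 52.4% lower in eggs in WT, and 23% and 51% in cKO. Of 9 tested HSF1 targets among the members, 3 rose and 5 fell in WT, and 2 rose and 5 fell in cKO, near those shares. Of 10 tested HSF1 targets outside the family, 1 rose and 6 fell. Ahsa1, which activates the ATPase of HSP90, rose by 0.89, and Fkbp4, an immunophilin of steroid receptor complexes, fell by 3.40. Next after Ahsa1 among the called targets came Hspd1 at -0.18 and Cacybp at -0.65, both lower in eggs. Of 20 co-chaperones, 4 rose and 14 fell, with Tomm34 at 0.63, Fkbp5 entry 1 at 0.58, Pih1d1 at -3.16 and Cdc37 at -2.64 among them. The floor of 1 FPKM holds up the values of Pih1d1 and Fkbp4, whose WT eggs averaged 0.345 and 0.523 FPKM against 8.98 and 11.1 FPKM in GV oocytes, so their order is not given. Of 24 class C J-domain transcripts, 7 rose and 14 fell, from 0.99 for Dnajc7, 0.70 for Dnajc13 and 0.56 for Dnajc3 to -2.41 for Dnajc5g, -2.69 for Dnajc30 and -3.05 for Dnajc15 on the floored scale. Dnajc24, named with its values already known, went from a mean of 3.87 to 0.339 FPKM, a fall that the floor understates. Of 7 genes around HSF, 3 rose and 3 fell. Hsbp1, which binds HSF1 trimers, rose by 1.33, Ep300 by 1.12 and Hsf2bp by 0.75, and Hdac6 was at -2.25, Vcp at -1.08 and Hspbap1 at -0.54. The medians were -0.42 for other HSF1 targets, -1.13 for co-chaperones, -1.01 for class C transcripts and -0.06 for the genes around HSF, against -0.44 over all transcripts. In cKO 2 rose and 5 fell among other HSF1 targets, 4 and 15 among 21 co-chaperones, 7 and 15 among class C transcripts, and 3 and 2 among the genes around HSF.

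Of 14 oocyte markers, 13 averaged 1 FPKM or more over the 16 libraries, and Sohlh1 did not exceed 0.156 FPKM in any library. The summed FPKM of 14 oocyte markers was between 10773 and 17390 in the 16 libraries, led by Oosp1 with a mean of 3577 FPKM. Of 13 tested oocyte markers, limma called 0 in GV oocytes (0 at an unadjusted p under 0.05), and 3 higher in cKO eggs (6.53% of all transcripts were), namely Zp3 (1.20), Figla (1.57) and Ooep (0.53), on the log2 scale. All of these calls were lost without WT egg replicate 1, 3 or 4 in turn (adjusted p up to 0.138), and Figla and Ooep lost theirs without further libraries too. Ooep was also not called with 1 FPKM added, on the median-ratio scale, with moderation without a trend or with all 16 libraries in 1 fit. Zp3 (1.14) and Figla (1.68) were also called in the interaction, which Zp3 lost without cKO GV replicate 3 (adjusted p = 0.0513) and with no filter (adjusted p = 0.0976) and Figla kept only without WT GV replicate 2, WT egg replicate 2 or cKO egg replicate 1 or 2 (adjusted p otherwise up to 0.0879). Figla also lost it with 1 FPKM added and with no filter. Markers of cumulus and granulosa cells summed to between 18.1 and 24.4 FPKM over 18 genes, with Cyp19a1 the most abundant at a mean of 11.2 FPKM, and Amh, Foxl2, Inhbb and Ptx3 listed at 0 in at least 14 of the 16 libraries. Blood and immune markers summed to between 1.14 and 11.0 FPKM over 4 genes, led by Cd68 at a mean of 1.96 FPKM. The highest sum, in WT egg replicate 1, came with Lyz2 at 8.88 FPKM, which was at most 0.967 FPKM in the other libraries. Immediate early genes, which respond to handling, summed to between 36.2 and 53.2 FPKM over 10 genes, led by Dusp1 at 24.5 FPKM. In the genotype comparisons and the interaction limma called 0 genes of these last 3 lists, and at an unadjusted p under 0.05 there was 1, an immediate early gene higher in cKO GV oocytes. Between stages, where 26.1% of all transcripts were higher and 52.4% lower in WT, and 23% and 51% in cKO, these lists had calls too. Of the cumulus markers, Kitl and Cyp19a1 were called higher and Nr5a2 lower in WT eggs among 3 tested, and Cyp19a1 higher and Cyp11a1 lower in cKO eggs among 4 tested. Of the immediate early genes, Btg2 was called lower in WT eggs among 3 tested, and Btg2 and Atf3 lower and Dusp1 higher in cKO eggs among 4 tested, and the part of these cells or of handling in the stage results was not tested.

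Heat shock elements, the DNA motif that HSF1 binds, were looked for in the promoters of the members. The promoter sequences came from RefSeq (GRCm38.p6), 300 bases for each start of transcription with 250 before and 50 after it, and 33 of the 41 member names were matched. The strict motif has 3 units, GAANNTTCNNGAA or TTCNNGAANNTTC, and because each spelling is the reverse complement of the other, both strands are covered. It was found for 2 of 33 members (6.06%), Dnajb6 and Hsph1, and for 179 of 27025 genes in all (0.662%), or 0.603% of 32851 promoters. The looser motif of 2 units, GAANNTTC or TTCNNGAA, reads the same on both strands and is contained in the strict one. It was found for 11 of 33 members (33.3%) and 17% of all genes (15.1% of promoters). Among the 8 matched members of the list of HSF1 targets it was found for 6 (75%): Bag3, Dnaja1, Dnajb4, Hspb1, Hspb8 and Hsph1. Among the other 25 it was found for 5 (20%). These matches describe letters in a window and not binding. The strict match of Dnajb6, the member with the lowest adjusted p after Dnaja1 in the egg comparison, is shown with its own letters in capitals. It begins 46 bases before 1 start and 127 bases before the other on the plus strand, in the window chr5:29735648-29735947. The bases before each start hold annotated exons of Dnajb6 and Gm5129.
Dnajb6: GAATCTTCCGGAA

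Next are the 250 bases before the start for the named members that have a match of the looser motif in those bases and no annotated exon there, with the matches in capitals. Dnajb4 (chr3:152193846-152194095, minus strand) rose in both genotypes, and its match begins 14 bases before 1 of its 2 annotated starts. Hspb1 (chr5:135887669-135887918, plus strand) rose in WT, and its matches begin 117 and 97 bases before the start. Hsf5 (chr11:87616914-87617163, plus strand) rose in cKO for entry 1, and its match begins 185 bases before the start.
Dnajb4: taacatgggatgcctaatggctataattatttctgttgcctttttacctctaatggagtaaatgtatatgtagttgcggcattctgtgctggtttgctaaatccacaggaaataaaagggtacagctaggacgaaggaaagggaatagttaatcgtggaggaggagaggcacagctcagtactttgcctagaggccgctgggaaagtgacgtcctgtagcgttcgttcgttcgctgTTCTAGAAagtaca
Hspb1: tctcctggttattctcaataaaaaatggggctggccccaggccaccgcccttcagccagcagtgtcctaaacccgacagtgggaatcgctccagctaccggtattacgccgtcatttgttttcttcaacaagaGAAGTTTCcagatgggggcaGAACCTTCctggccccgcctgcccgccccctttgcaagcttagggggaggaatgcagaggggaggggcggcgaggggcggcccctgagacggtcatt
Hsf5: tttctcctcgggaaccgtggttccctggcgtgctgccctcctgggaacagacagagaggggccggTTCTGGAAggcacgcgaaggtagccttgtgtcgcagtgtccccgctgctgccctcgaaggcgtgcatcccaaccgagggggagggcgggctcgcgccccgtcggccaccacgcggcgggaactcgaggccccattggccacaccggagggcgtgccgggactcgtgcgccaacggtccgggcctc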

How the data were processed

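RNA-seq libraries (Smart-seq2, primed on poly(A) with oligo-dT, not marking strand) came from 16 pools of oocytes. The authors deposited FPKM values per gene entry; the submitters' processing notes name TopHat2 2.1.1, Cufflinks 2.2.1 and mm10, and the annotation version is not given in the sources used here. ERCC spike-ins added at lysis were not used here, so values are shares of a library. Depth, 10.6 to 15.7 M fragments (median 13.7 M), was estimated from the steps between low values (FPKM times transcript length in kb, below 0.6) of genes with a single annotated transcript. Fragments behind a member's value were estimated from that depth and its longest annotated transcript.

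Values below 1 FPKM were set to 1, log2 was taken, and entries that averaged 1 FPKM or more in the compared libraries were tested. A fold change is on this scale, which understates changes of low transcripts. limma 3.58.1 (R 4.3.3) with an intensity trend was fitted to the 8 libraries of each comparison and to all 16 for the interaction, with Benjamini-Hochberg adjustment over all entries tested and a threshold of 0.05. It was tested on simulated data, but the outcome is not given here and no result rests on it. Other steps used Python 3.11.15 with pandas 2.3.3, numpy 2.4.6, matplotlib 3.10.9 and scipy 1.17.1.

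Named were Hsf1, Hsf2, Hsf4, both Hsf5 entries, listed HSF1 targets, the 12 members with the highest mean, members called between genotypes and, for eggs against GV oocytes, the 6 largest and 6 lowest called in both genotypes. Other lists held HSF1 targets outside the family, co-chaperones, class C J-domain genes, genes around HSF, and markers of oocytes, cumulus cells, blood and handling; of these, genes called between genotypes and the 3 largest and 3 lowest in WT maturation were named. Members and lists were chosen with earlier results of these data known. Alternatives were other floors, filters, scalings and moderation, all 16 libraries in one fit, summed entries, a block on replicate number and each library left out.

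Gene positions and exon overlaps came from GENCODE M21 (GRCm38), where all 43 entries were matched. Promoters came from RefSeq (GRCm38.p6). Bag4, Dnaja1-ps, Hsf1, Hsf4, Hsp90aa1, Hsp90ab1, Hspa13 and Hspa8 had no matched promoter, so they were not searched and are not in the motif shares. Protein identity was not computed. Results of some genes of the other lists are not reported here.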

Additional observations from a re-analysis of the deposited data

Results flagged for a closer look

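In a group of 4 libraries, a library was singled out where its gap to the nearest other, over the range of the group, exceeded Dixon's 95% critical value. Of 69 groups tested, from the named members, the summed members and Psma7, 4 gave such a library, and chance alone gives about 5% of groups. Hsp90aa1 was at 2532 FPKM in cKO egg replicate 1, with the others between 3068 and 3167. Hsp90ab1 was at 102 FPKM in cKO GV replicate 1, with the others between 141 and 147. Dnajb1 was at 79.8 FPKM in WT GV replicate 3, with the others between 95.6 and 98.1. Dnaja3 was at 5.76 FPKM in WT egg replicate 4, with the others between 2.93 and 3.31.

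The effect of genotype on Dnaja1 differed between eggs and GV oocytes in limma, with an interaction of 0.66 (adjusted p = 0.0308), which was lost without WT GV replicate 1 or 4, cKO GV replicate 3, or WT egg replicate 1, 3 or 4 (adjusted p up to 0.0706). It was also lost with no filter on low levels (adjusted p = 0.0944) and with the replicate number as a block (adjusted p = 0.0582).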

How the results depend on the processing

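Of 530 values of named members in the genotype comparisons and the Dnaja1 interaction under alternatives, 490 kept their direction and side of the threshold, 13, all of Dnaja1, lost the call, 1 gained it and 26 changed sign, none of them called and none above 0.192 in size. For eggs against GV oocytes, calls were lost by Hspb11, Hspa4l, Hspb6 and Hspa12a in WT and by Hsf1, Hsf5 entry 1 and Dnajb12 in cKO, in 1 or more alternatives each (adjusted p up to 0.508). On the median-ratio scale Hspa4 was at -0.0244 and Dnaja3 at -0.0068 in the GV comparison. With each library left out in turn, the log2 fold change in GV oocytes ran from -0.0296 to 0.1241 for Hsp90aa1, -0.0925 to 0.0376 for Dnajb4, -0.0298 to 0.1317 for Hspa8, -0.0384 to 0.0954 for Dnaja2, -0.1353 to 0.1014 for Hspa4, -0.1147 to 0.1102 for Dnaja3 and -0.0333 to 0.1993 for Hsf1. In eggs it ran from -0.0484 to 0.0590 for Hsp90aa1, -0.0720 to 0.0478 for Hspa4, -0.0857 to 0.1442 for Hsph1, -0.0318 to 0.2463 for Hsf1 and -0.2019 to 0.1918 for Hspb1. Members called higher in cKO eggs were 2 with all 16 libraries in one fit, where Dnajb6 passed (adjusted p = 0.0196), and 0 to 1 with a library left out. For the interaction the count was 0 with no filter and 0 to 1 with a library left out. The promoter share was 6.06% with 3 units and 33.3% with 2 units. The cause of these changes was not tested.

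With the replicate number as a block (replicate block), 0 members were called higher in eggs and 0 in the interaction, with adjusted p = 0.0515 and 0.0582 for Dnaja1. The egg call of Psma7 was not made in that fit (adjusted p = 0.0515). The egg calls of Zfand2a, Ptges3, Cdc37, Dnajc15, Dnajc17, Hspbap1, Zp3, Figla and Ooep and the Figla interaction were not made in that fit either, and those of Ubb were. Replicate numbers do not pair the samples: deviations of same-numbered libraries correlated between -0.496 and 0.285. Values rest on small pools of cells, 4 pools a group, without amounts per cell. Low members such as Hspb1 rest on few fragments, and exons shared with genes on the opposite strand cannot be told apart. Protein identity was not run.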
